A study of Mus musculus with 4 samples.

Results

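The genes described here are the 56 of the 32285 genes in the count tables whose symbols begin with Eif, after pseudogene names and opposite-strand transcripts were left out. They encode the eukaryotic translation initiation factors, the kinases of eIF2 and the proteins that bind eIF4E. By factor, 10 belong to eIF1, eIF5 and eIF6, 6 to eIF2 and eIF2-like proteins, 4 are eIF2 kinases, 5 are eIF2B subunits, 14 belong to eIF3, 13 to eIF4 and 3 are eIF4E-binding proteins. The last, Eif2c5, carries an argonaute-type name and had 1 UMI (a unique molecular identifier, which counts 1 captured RNA molecule) among the beta-like cells of the 4 libraries. The RNA came from pancreatic islets of wild-type male C57BL6J mice aged 8 weeks, kept in culture for 24 h and dispersed with Accutase. Imeglimin, an oral glucose-lowering drug, was present at 1 mM in 1 library at 11.1 mM glucose and in 1 library at 3.9 mM glucose. The matching vehicle libraries received DMSO at 11.1 mM and at 3.9 mM glucose. The labels name no transgene and do not say how many mice were pooled in a library.

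Initiation begins when eIF2, loaded with GTP and the initiator tRNA, joins the small ribosomal subunit together with eIF1, eIF1A, eIF3 and eIF5. The cap-binding complex eIF4F, made of the cap-binding protein eIF4E, the scaffold eIF4G and the helicase eIF4A, brings the mRNA, and eIF5 triggers GTP hydrolysis once a start codon is found. The exchange factor eIF2B then reloads eIF2 with GTP, and phosphorylation of the eIF2 alpha subunit by the kinases HRI, PKR, PERK or GCN2 blocks that exchange, lowering general translation while ATF4 is translated better. In beta cells, which make proinsulin in large amounts, PERK senses misfolded protein in the endoplasmic reticulum, and its loss causes early diabetes in mice and humans.

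After filtering, the imeglimin 11.1 mM, vehicle 11.1 mM, imeglimin 3.9 mM and vehicle 3.9 mM libraries held 8427, 7444, 8755 and 7166 cells, with medians of 11400, 12035, 8832 and 11656.5 UMIs per cell. Clustering of all cells gave 7 classes with enough cells in each library, named from marker genes as beta-, alpha-, delta-, pancreatic polypeptide (PP)-, endothelial-, macrophage- and stromal-like. Beta-like cells numbered 5403 in the imeglimin 11.1 mM library, 4812 in the vehicle 11.1 mM library, 4372 in the imeglimin 3.9 mM library and 4553 in the vehicle 3.9 mM library. Different clusters held most of them in each library: cluster 0 held 90.1% of those of vehicle 3.9 mM, cluster 1 held 70.5% of those of vehicle 11.1 mM, clusters 3 and 4 held 45.4% and 34% of those of imeglimin 11.1 mM, and cluster 2 held 63.1% of those of imeglimin 3.9 mM. A further 22.8% of those of imeglimin 3.9 mM fell in cluster 10. Stress genes were among the leading genes of these clusters, Nupr1 in cluster 0, Ddit3, Hsp90aa1 and Hspa8 in cluster 2, Bnip3 in cluster 4 and Derl3 and Nfkbia in cluster 10. Alpha-like cells also fell apart by drug, with cluster 5 holding 93.9% of them in the imeglimin 11.1 mM library and 97.1% in the imeglimin 3.9 mM library, and cluster 9 holding 89.5% in the vehicle 11.1 mM library and 95.1% in the vehicle 3.9 mM library. Between 61 and 72 cells per library carried a barcode that also occurred in another library.

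Each condition had 1 library. Differences between conditions therefore have no replicate check and no test, and a library and its condition cannot be told apart. Counting intervals (95%) cover counting error only. Levels are UMI counts rescaled to a common total (CPM) of the summed class, scaled by TMM factors unless stated, and a ratio was counted when it reached 1.5-fold and the gene reached a minimum of 20 CPM in either library in beta-like cells, or 50 CPM in the other classes. UMIs were counted from 3′ ends, so a level compares 1 gene between libraries or classes and is not scaled to transcript length.

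Summed over the family, the Eif genes made up a larger share of the beta-like transcriptome with imeglimin than with vehicle, and a smaller share at 11.1 mM than at 3.9 mM glucose. Eif1 and Eif5 carried most of the drug difference at both glucose levels. At 11.1 mM glucose the whole family took 0.785% of all UMIs in the imeglimin library and 0.621% in the vehicle library. At 3.9 mM glucose the whole family took 1.44% in the imeglimin library and 1.24% in the vehicle library. The share of Eif1 and Eif5 together was 0.311% (imeglimin) against 0.207% (vehicle) at 11.1 mM. At 3.9 mM their share was 0.737% (imeglimin) against 0.501% (vehicle). Islet hormone transcripts moved in the other direction along glucose: Ins1, Ins2, Iapp, Gcg, Sst, Ppy and Pyy took 38.4% of the UMIs in the imeglimin 11.1 mM beta-like cells and 43.8% in the vehicle 11.1 mM ones, against 25.9% in the imeglimin 3.9 mM ones and 17.4% in the vehicle 3.9 mM ones. Of the UMIs outside hormone and mitochondrially encoded genes, the Eif genes took 1.32% in the imeglimin library and 1.16% in the vehicle library at 11.1 mM, and 2% in the imeglimin library and 1.55% in the vehicle library at 3.9 mM. The order of the 4 libraries was thus the same on both totals. Without Eif1 and Eif5, the other 54 members took 0.474% of all UMIs in the imeglimin library and 0.414% in the vehicle library at 11.1 mM, but 0.702% in the imeglimin library and 0.743% in the vehicle library at 3.9 mM. Outside hormone and mitochondrially encoded genes, these 54 took 0.799% and 0.974% in the imeglimin libraries at 11.1 and 3.9 mM, and 0.772% and 0.927% in the vehicle libraries, so that the sign of the difference at 3.9 mM depends on the total used. Malat1, a nuclear RNA, took 2.06% of beta-like UMIs in the imeglimin library and 1.13% in the vehicle library at 11.1 mM, and 2.41% in the imeglimin library and 1.52% in the vehicle library at 3.9 mM; its part in the Eif differences was not tested.

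The comparison of imeglimin with vehicle asks which initiation genes differ with the drug at each glucose level. In beta-like cells, the start-codon factors carried the largest differences, Eif5 at both glucose levels and Eif1 at 3.9 mM, while the eIF2 kinases and the eIF2 subunits stayed within 1.5-fold. At 11.1 mM glucose, 45 members passed the minimum; 3 of them, Eif5, Eif3c and Eif4g2, were at least 1.5-fold higher with imeglimin (6.67% of members, beside 5.62% of all 5643 genes compared), and 0 were at least 1.5-fold lower (4.31% of all genes). Their median log2 ratio was 0.17, against 0.11 over all genes, and 25 of the 45 lay above the all-gene median. At 3.9 mM glucose, 5 of 45 members, Eif5, Eif1, Eif4ebp1, Eif4e2 and Eif5b, were at least 1.5-fold higher with imeglimin (11.1%, beside 12.4% of all 5995 genes) and 0 were lower (10.6% of all genes), with a median log2 ratio of 0.28 against 0.10 over all genes and 32 of 45 above the all-gene median. The share of members past 1.5-fold upwards was thus close to that of all genes at both glucose levels.

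**Figure D1:**
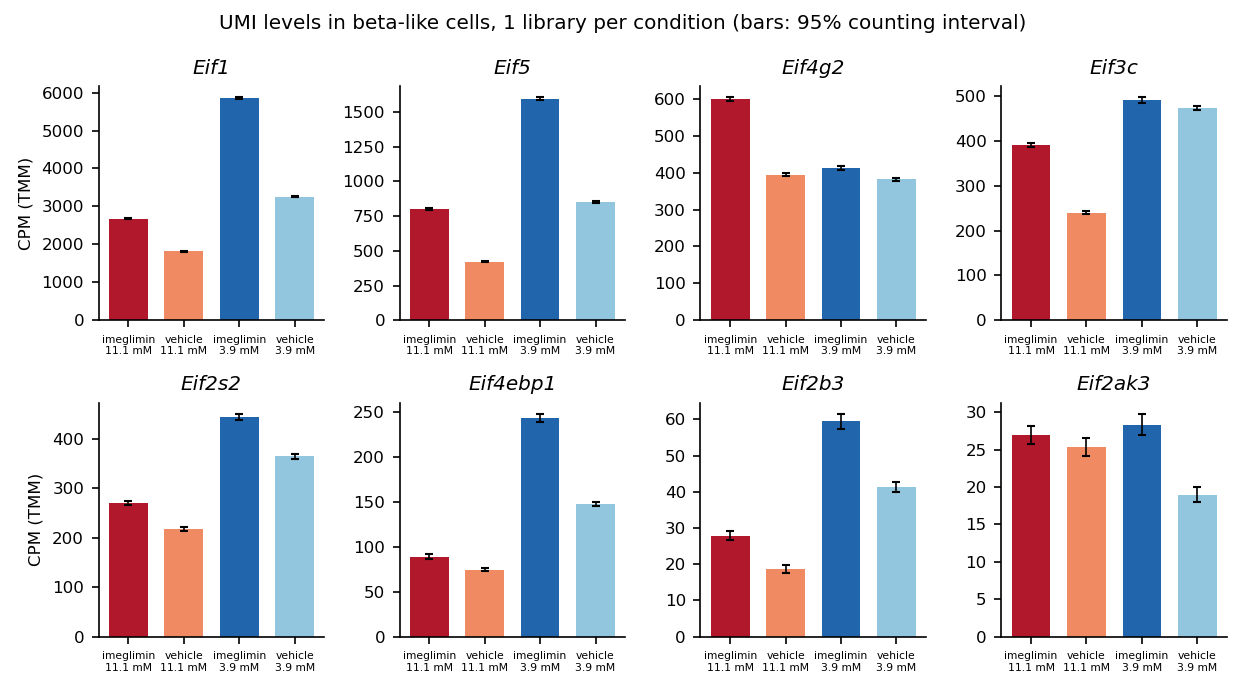
Level (CPM with TMM scaling, linear axis from 0) of Eif1, Eif5, Eif4g2, Eif3c, Eif2s2, Eif4ebp1, Eif2b3 and Eif2ak3 in beta-like cells of the 4 libraries, 1 bar per library, with 95% counting intervals. Eif5 and Eif1 were highest in the imeglimin 3.9 mM library (1597 and 5859 CPM), and the vehicle 11.1 mM library was lowest for Eif1, Eif5, Eif2s2, Eif4ebp1 and Eif2b3.

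At 3.9 mM glucose, 8 members in alpha-like and 17 in delta-like cells were at least 1.5-fold higher with imeglimin, as described further on. Both classes shared 5 of them. The promoters of 4 of these 5, Eif1, Eif5, Eif2s2 and Eif3c, are shown so that the genes can be placed. The fifth is Eif4ebp1. They are the bases upstream of the gene start in RefSeq's promoter windows on GRCm38.p6, written 5′ to 3′ on the gene's own strand, with motif matches in capitals. Eif1 (ENSMUSG00000035530, chr11:100319885-100322096, plus strand) is shown from chr11:100319699-100319884 and its capitals mark a CCAAT box. Eif5 (ENSMUSG00000021282, chr12:111538016-111546752, plus strand) is shown from chr12:111537851-111538015 and Eif2s2 (ENSMUSG00000074656, chr2:154871410-154892935, minus strand) from chr2:154892936-154893156; neither holds a match to the 6 motifs searched. Eif3c (ENSMUSG00000030738, chr7:126546455-126566411, minus strand) is shown from chr7:126566412-126566616 and its capitals mark the ETS factor core CCGGAAG read from the opposite strand.
Eif1: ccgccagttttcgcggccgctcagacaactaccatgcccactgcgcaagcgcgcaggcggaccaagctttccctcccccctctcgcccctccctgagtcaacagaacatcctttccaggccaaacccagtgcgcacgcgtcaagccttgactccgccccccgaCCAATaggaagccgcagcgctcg
Eif5: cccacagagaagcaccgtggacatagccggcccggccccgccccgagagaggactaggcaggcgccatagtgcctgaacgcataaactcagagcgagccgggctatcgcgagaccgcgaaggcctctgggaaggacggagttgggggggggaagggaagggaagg
Eif2s2: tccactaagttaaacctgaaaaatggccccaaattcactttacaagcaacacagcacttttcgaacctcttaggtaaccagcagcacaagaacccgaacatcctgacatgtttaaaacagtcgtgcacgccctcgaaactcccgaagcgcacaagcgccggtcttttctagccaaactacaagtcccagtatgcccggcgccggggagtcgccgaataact
Eif3c: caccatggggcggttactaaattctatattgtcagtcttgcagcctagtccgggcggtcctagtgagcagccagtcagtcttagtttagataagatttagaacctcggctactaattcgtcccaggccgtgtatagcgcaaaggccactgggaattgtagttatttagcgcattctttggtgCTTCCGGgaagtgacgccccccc

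All 56 members were found by gene ID in GENCODE vM21, and 44 had a window in the RefSeq promoter table. The 250 bases before the start were searched for 6 motifs on both strands. The ETS core CCGGAAG occurred in 10 of the 44 member windows (22.7%), against 7.05% of all 27025 windows; they were those of Eif1ad, Eif1ax, Eif1b, Eif3c, Eif3d, Eif3g, Eif3l, Eif3m, Eif4ebp2 and Eif5a2. The E-box CACGTG occurred in 7 (15.9%, against 6.05%) and the NRF1 site GCGCATGCG in 3 (6.82%, against 1.49%). CCAAT occurred in 12 (27.3%, against 34.5%). The cAMP response element TGACGTCA occurred in 0 of 44 (1.62% of all windows), and the C/EBP-ATF response element TGATGNAA in 1, that of Eif2s3x (2.27%, against 3.53%). These are letter matches in short windows and do not show binding.

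Eif5 encodes the GTPase-activating protein of eIF2. It had 801 CPM with imeglimin and 423 CPM with vehicle at 11.1 mM glucose, and 1597 CPM with imeglimin and 851 CPM with vehicle at 3.9 mM. The imeglimin library was the higher of each pair, 1.9-fold at 11.1 mM (log2 ratio 0.92, counting interval 0.90 to 0.94) and 1.88-fold at 3.9 mM (log2 ratio 0.91, 0.89 to 0.92). It was past 1.5-fold in each of the 13 other settings tried, at log2 ratios of 0.73 to 1.08 at 11.1 mM and 0.60 to 0.92 at 3.9 mM. Among the 13, the minimums of 5 CPM and 50 CPM change which genes are compared and cannot change the ratio of a gene.

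Eif1 encodes the factor that guards start-codon choice on the small ribosomal subunit, and it had the most UMIs of the family. Its level was 2671 CPM with imeglimin and 1817 CPM with vehicle at 11.1 mM, and 5859 CPM with imeglimin and 3254 CPM with vehicle at 3.9 mM. The log2 ratio was 0.56 (0.55 to 0.57) at 11.1 mM, just short of 1.5-fold, and 0.85 (0.84 to 0.86) at 3.9 mM. Eif5b, which joins the ribosomal subunits, had 131 CPM with imeglimin and 111 CPM with vehicle at 11.1 mM, and 167 CPM with imeglimin and 105 CPM with vehicle at 3.9 mM, a log2 ratio of 0.24 and of 0.67 (0.63 to 0.72). Eif6, which keeps the large subunit from joining too early, had 73.3 CPM with imeglimin and 63.9 CPM with vehicle at 11.1 mM, and 118 CPM with imeglimin and 82.0 CPM with vehicle at 3.9 mM, within 1.5-fold in each pair. The remaining members of the group that passed the minimum, Eif1a, Eif1ad, Eif1ax, Eif1b and Eif5a, had log2 ratios of 0.05 to 0.43 at 11.1 mM and 0.22 to 0.50 at 3.9 mM. Eif5a2 stayed under the minimum, at 4.32 to 7.6 CPM in the 4 libraries.

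The subunits of eIF2 itself differed little with imeglimin. Eif2s1, the alpha subunit that the kinases phosphorylate, had 50.9 CPM with imeglimin and 48.0 CPM with vehicle at 11.1 mM, and 97.4 CPM with imeglimin and 69.9 CPM with vehicle at 3.9 mM (log2 ratios 0.09 and 0.48). Eif2s2, the beta subunit, had 270 CPM with imeglimin and 218 CPM with vehicle at 11.1 mM, and 445 CPM with imeglimin and 365 CPM with vehicle at 3.9 mM (log2 ratios 0.31 and 0.29). The gamma subunit is encoded on both sex chromosomes of these male mice. Eif2s3x, the X-linked copy, had 73.3 CPM with imeglimin and 58.4 CPM with vehicle at 11.1 mM, and 79.3 CPM with imeglimin and 75.1 CPM with vehicle at 3.9 mM. Eif2s3y, the Y-linked copy, had 49.4 CPM with imeglimin and 47.7 CPM with vehicle at 11.1 mM, and 55.6 CPM with imeglimin and 56.8 CPM with vehicle at 3.9 mM. All 4 subunit genes were within 1.5-fold in both pairs. Eif2a, an initiator-tRNA binding protein outside the eIF2 complex, also stayed within it (log2 ratios 0.17 and 0.09), and Eif2d was under the minimum at 14.6 to 19.5 CPM.

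The 4 eIF2 kinases were expressed at low levels and none reached 1.5-fold with imeglimin. Eif2ak3 (PERK) had 26.9 CPM with imeglimin and 25.4 CPM with vehicle at 11.1 mM, and 28.3 CPM with imeglimin and 18.9 CPM with vehicle at 3.9 mM. Its log2 ratio was 0.08 (−0.01 to 0.18) at 11.1 mM and 0.58 (0.47 to 0.69) at 3.9 mM, where the ratio was just short of 1.5-fold. Eif2ak2 (PKR, activated by double-stranded RNA) had 21.1 CPM with imeglimin and 20.6 CPM with vehicle at 11.1 mM, a log2 ratio of 0.04 (−0.07 to 0.14), and 14.0 CPM in both 3.9 mM libraries, under the minimum. Eif2ak1 (HRI, activated by haem shortage) had 17.9 CPM with imeglimin and 16 CPM with vehicle at 11.1 mM, under the minimum, and 22.0 CPM with imeglimin and 19.1 CPM with vehicle at 3.9 mM (log2 ratio 0.21). Eif2ak4 (GCN2, activated by amino acid shortage) was under the minimum in all 4 libraries, at 7.38 to 9 CPM from 469 to 622 UMIs. These are levels of kinase mRNA, and neither kinase activity nor eIF2 phosphorylation was measured.

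Of the 5 eIF2B subunits, 3 passed the minimum with imeglimin. Eif2b3, a subunit of the catalytic subcomplex, came closest to the threshold at both glucose levels, with 27.8 CPM with imeglimin and 18.7 CPM with vehicle at 11.1 mM, and 59.5 CPM with imeglimin and 41.3 CPM with vehicle at 3.9 mM (log2 ratios 0.58, 0.47 to 0.68, and 0.53). Eif2b2, a regulatory subunit, lay on opposite sides of 0: it had 17.2 CPM with imeglimin and 21.6 CPM with vehicle at 11.1 mM, but 29.8 CPM with imeglimin and 23.1 CPM with vehicle at 3.9 mM. Eif2b5, the catalytic subunit, had 47.9 CPM with imeglimin and 40.6 CPM with vehicle at 11.1 mM, and 42.5 CPM with imeglimin and 51.4 CPM with vehicle at 3.9 mM (log2 ratios 0.24 and −0.27). Eif2b1 and Eif2b4 stayed under the minimum, at 7.99 to 10.8 CPM and 10.0 to 15.3 CPM.

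Within eIF3, the largest initiation factor, Eif3c stood apart from the other subunits at 11.1 mM glucose. Eif3c, a core subunit that in yeast contacts eIF1 and eIF5, had 391 CPM with imeglimin and 240 CPM with vehicle at 11.1 mM, but 491 CPM with imeglimin and 474 CPM with vehicle at 3.9 mM. The vehicle 11.1 mM library was thus the low one of the 4, and the log2 ratio was 0.70 (0.68 to 0.73) at 11.1 mM and 0.05 at 3.9 mM. The 13 eIF3 subunits that passed the minimum had a median log2 ratio of 0.10 at 11.1 mM, with Eif3m lowest at −0.15, and of 0.28 at 3.9 mM. Eif3j1, a loosely bound subunit, had 50.2 CPM with imeglimin and 34.1 CPM with vehicle at 11.1 mM, and 69.6 CPM with imeglimin and 46.6 CPM with vehicle at 3.9 mM (log2 ratios 0.56 and 0.58). Its near-identical copy Eif3j2 had 85 to 126 UMIs per library; 88.9% of the 50-base words of the 3′ end of Eif3j2 also occur in Eif3j1, so its count is uncertain.

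Among eIF4 genes, the member past 1.5-fold was a different one at each glucose level. Eif4g2, an eIF4G relative that cannot bind eIF4E, had 599 CPM with imeglimin and 395 CPM with vehicle at 11.1 mM, and 413 CPM with imeglimin and 382 CPM with vehicle at 3.9 mM. The imeglimin 11.1 mM library was its only high one, with a log2 ratio of 0.60 (0.58 to 0.62); it stayed past 1.5-fold in 7 of 13 other settings, in a range of 0.41 to 0.60. Eif4e2, a cap-binding protein that represses translation, had 37.1 CPM with imeglimin and 35.0 CPM with vehicle at 11.1 mM, and 58.2 CPM with imeglimin and 35.7 CPM with vehicle at 3.9 mM (log2 ratios 0.08 and 0.70, 0.63 to 0.78). The imeglimin 3.9 mM library alone was high. The subunits of eIF4F itself were within 1.5-fold: log2 ratios were 0.24 and 0.43 for Eif4e, 0.30 and 0.28 for Eif4a1, 0.03 and 0.08 for Eif4a2 and −0.09 and −0.33 for Eif4g1 at 11.1 and 3.9 mM. Eif4g3, another scaffold, had 117 CPM with imeglimin and 89.3 CPM with vehicle at 11.1 mM, and 98.3 CPM with imeglimin and 127 CPM with vehicle at 3.9 mM, on opposite sides of 0. Eif4a3, Eif4b, Eif4enif1 and Eif4h had log2 ratios of −0.12 to 0.12 at 11.1 mM and −0.12 to 0.31 at 3.9 mM. Eif4e3 stayed under the minimum and shares its strand with another coding gene, and Eif4e1b had 0 UMIs in the beta-like cells of every library.

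Of the eIF4E-binding proteins, which block eIF4F assembly until mTORC1 phosphorylates them, Eif4ebp1 is known as a target gene of ATF4 in mouse islets. Eif4ebp1 had 89.1 CPM with imeglimin and 74.5 CPM with vehicle at 11.1 mM, and 243 CPM with imeglimin and 148 CPM with vehicle at 3.9 mM (log2 ratios 0.26 and 0.72, 0.69 to 0.76). Each 3.9 mM library was higher than each 11.1 mM library. Eif4ebp2 had 61.3 CPM with imeglimin and 45.6 CPM with vehicle at 11.1 mM, and 47.1 CPM with imeglimin and 44.9 CPM with vehicle at 3.9 mM (log2 ratios 0.42 and 0.07). Eif4ebp3 stayed under the minimum, at 9.34 to 11.3 CPM, and overlaps another coding gene on its strand.

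The scale matters for these counts, since hormone transcripts took a different share of each library. On CPM without hormone and mitochondrially encoded genes the median of all genes was −0.10 at 11.1 mM and −0.08 at 3.9 mM, and the member median −0.02 and 0.13, with Eif5 alone past 1.5-fold at 11.1 mM. Of all genes at 11.1 mM, 2.09% were higher and 8.8% lower on this scale. On plain CPM at 3.9 mM the median of all genes was −0.23, the member median −0.02, with Eif5 alone at least 1.5-fold higher and 2 members at least 1.5-fold lower. On that scale 3.47% of all genes were higher and 24.2% lower. The member median lay above the all-gene median in every setting, by 0.045 to 0.080 at 11.1 mM and by 0.157 to 0.238 at 3.9 mM. The members counted above as past 1.5-fold kept their direction in all 13 settings.

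**Figure D2:**
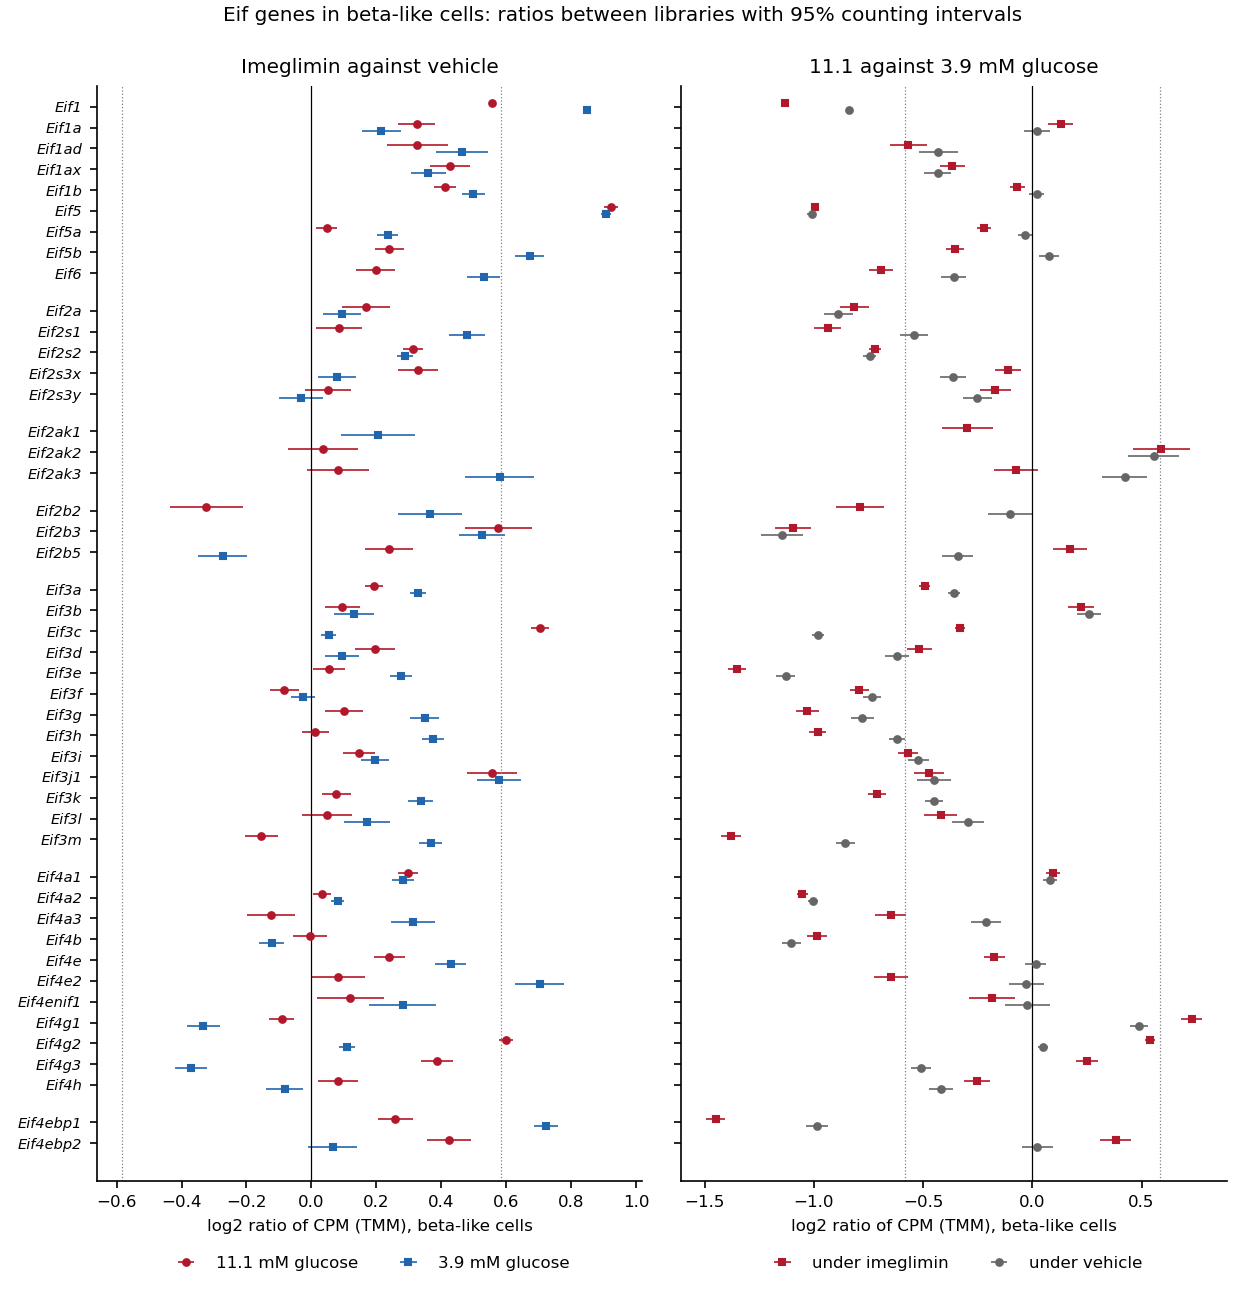
Log2 ratios with 95% counting intervals of the members past the minimum in beta-like cells: imeglimin against vehicle on the left (red circles 11.1 mM, blue squares 3.9 mM) and 11.1 against 3.9 mM glucose on the right (red squares imeglimin, grey circles vehicle), with dotted lines at 1.5-fold. On the left, Eif5 was past 1.5-fold at both glucose levels; on the right, 15 members with vehicle and 19 with imeglimin lay past the lower line.

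The comparison of 11.1 with 3.9 mM glucose asks which initiation genes follow glucose. In beta-like cells, several eIF3 and eIF2 genes, Eif1, Eif5, Eif4a2, Eif4b and Eif4ebp1 were at least 1.5-fold lower at 11.1 mM with either treatment, and Eif4g1 was at least 1.5-fold higher with imeglimin. With imeglimin, 46 members passed the minimum; 19 were at least 1.5-fold lower at 11.1 mM (41.3%, beside 23.4% of all 6048 genes) and 2 higher (4.35%, beside 15.6%), with a median log2 ratio of −0.48 against −0.13 over all genes. With vehicle, 15 of 45 were lower (33.3%, beside 19.8% of all 5904 genes) and 0 higher (9.91% of all genes), with a median of −0.42 against −0.15. Among these, Eif2ak2 (higher) and Eif2b2 (lower) with imeglimin and Eif2b3 (lower) with vehicle passed the minimum only through the library where they were high, so they could be counted in that direction alone. The members above the all-gene median were 12 of 46 with imeglimin and 15 of 45 with vehicle. The member median lay below that of all genes in every setting, by 0.302 to 0.360 with imeglimin and by 0.196 to 0.298 with vehicle.

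Eif1 had 2671 CPM at 11.1 mM and 5859 CPM at 3.9 mM with imeglimin, and 1817 CPM at 11.1 mM and 3254 CPM at 3.9 mM with vehicle (log2 ratios −1.13 and −0.84). Eif5 had 801 CPM at 11.1 mM and 1597 CPM at 3.9 mM with imeglimin, and 423 CPM at 11.1 mM and 851 CPM at 3.9 mM with vehicle (−1.0 and −1.01). For each of these genes the vehicle 11.1 mM library was the lowest of the 4 and the imeglimin 3.9 mM library the highest. Eif6 passed 1.5-fold with imeglimin (−0.69) and not with vehicle (−0.36), while Eif1a and Eif1b were within it with both.

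In the eIF2 group, Eif2s2 was 270 CPM at 11.1 mM and 445 CPM at 3.9 mM with imeglimin, and 218 CPM at 11.1 mM and 365 CPM at 3.9 mM with vehicle (log2 ratios −0.72 and −0.74). Eif2a was 45.2 CPM at 11.1 mM and 79.4 CPM at 3.9 mM with imeglimin, and 40.2 CPM at 11.1 mM and 74.4 CPM at 3.9 mM with vehicle (−0.81 and −0.89). Eif2s1 passed 1.5-fold with imeglimin (−0.94) and reached −0.54 with vehicle. Both gamma subunit genes were within 1.5-fold. Eif2b3 was 27.8 CPM at 11.1 mM and 59.5 CPM at 3.9 mM with imeglimin, and 18.7 CPM at 11.1 mM and 41.3 CPM at 3.9 mM with vehicle, a log2 ratio of −1.10 and of −1.15 (−1.24 to −1.05). Eif2b2 passed 1.5-fold with imeglimin (−0.79) and had −0.10 with vehicle, and Eif2b5 stayed within it (0.17 and −0.34).

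By glucose, the kinases differed in sign, and with TMM scaling only Eif2ak2, with imeglimin, reached 1.5-fold. Eif2ak2 had 21.1 CPM at 11.1 mM and 14.0 CPM at 3.9 mM with imeglimin, and 20.6 CPM at 11.1 mM and 14.0 CPM at 3.9 mM with vehicle. Its log2 ratios were 0.59 (0.46 to 0.72) and 0.56 (0.44 to 0.67), on the 2 sides of 1.5-fold. Eif2ak3 had 26.9 CPM at 11.1 mM and 28.3 CPM at 3.9 mM with imeglimin, but 25.4 CPM at 11.1 mM and 18.9 CPM at 3.9 mM with vehicle (−0.08 and 0.42). Its low library was vehicle at 3.9 mM. On plain CPM Eif2ak3 had 23.5 CPM at 11.1 mM and 23.1 CPM at 3.9 mM with vehicle. Without hormone and mitochondrially encoded genes it had 43.8 CPM and 28.9 CPM, past 1.5-fold, so that this gap depends on the scale. On that scale Eif2ak2 with vehicle was past 1.5-fold too, at 35.4 CPM at 11.1 mM and 21.3 CPM at 3.9 mM. Eif2ak1 had 17.9 CPM at 11.1 mM and 22.0 CPM at 3.9 mM with imeglimin (−0.30), and 16 CPM at 11.1 mM and 19.1 CPM at 3.9 mM with vehicle, under the minimum, and Eif2ak4 was under the minimum throughout.

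Of the 13 eIF3 subunits compared, 6 were at least 1.5-fold lower at 11.1 mM with imeglimin and 7 with vehicle, with medians of −0.57 and −0.62, beside 23.4% and 19.8% of all genes and all-gene medians of −0.13 and −0.15. Eif3e had 99.1 CPM at 11.1 mM and 253 CPM at 3.9 mM with imeglimin, and 95.6 CPM at 11.1 mM and 209 CPM at 3.9 mM with vehicle. Its log2 ratios were −1.35 (−1.39 to −1.31) and −1.13 (−1.17 to −1.09). Eif3m had 85.3 CPM at 11.1 mM and 222 CPM at 3.9 mM with imeglimin, and 94.9 CPM at 11.1 mM and 172 CPM at 3.9 mM with vehicle (−1.38 and −0.86). Eif3f, Eif3g and Eif3h were past 1.5-fold with both treatments, at −0.79, −1.03 and −0.98 with imeglimin and −0.73, −0.78 and −0.62 with vehicle. Eif3k was past it with imeglimin (−0.71; −0.45 with vehicle), and Eif3c and Eif3d with vehicle (−0.98 and −0.62; −0.33 and −0.52 with imeglimin). Eif3b, a scaffold subunit, was the exception in sign, at 85.3 CPM at 11.1 mM and 73.0 CPM at 3.9 mM with imeglimin and 79.8 CPM at 11.1 mM and 66.6 CPM at 3.9 mM with vehicle (0.22 and 0.26). On plain CPM it had 73.7 CPM at 11.1 mM and 81.4 CPM at 3.9 mM with vehicle, so that this sign depends on the scale. The glucose difference was uneven among subunits of 1 complex.

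The same was true of eIF4. Eif4a2, a helicase, had 328 CPM at 11.1 mM and 680 CPM at 3.9 mM with imeglimin, and 321 CPM at 11.1 mM and 643 CPM at 3.9 mM with vehicle (log2 ratios −1.05 and −1.0). Its close relative Eif4a1 had 288 CPM at 11.1 mM and 270 CPM at 3.9 mM with imeglimin, and 234 CPM at 11.1 mM and 222 CPM at 3.9 mM with vehicle (0.10 and 0.08). The 2 helicase genes share no 50-base word of their 3′ ends. Eif4b, which stimulates the helicase, had 85.9 CPM at 11.1 mM and 170 CPM at 3.9 mM with imeglimin, and 86.2 CPM at 11.1 mM and 185 CPM at 3.9 mM with vehicle (−0.99 and −1.10). Eif4g1, the main scaffold, ran the other way, at 156 CPM at 11.1 mM and 94.2 CPM at 3.9 mM with imeglimin, and 166 CPM at 11.1 mM and 119 CPM at 3.9 mM with vehicle. Its log2 ratios were 0.73 (0.68 to 0.78) and 0.49 (0.45 to 0.53), and with imeglimin it was past 1.5-fold in all 13 other settings. Eif4a3, part of the exon junction complex, and Eif4e2 were past 1.5-fold downwards with imeglimin (−0.65 and −0.65) and not with vehicle (−0.21 and −0.03). Eif4ebp1 was 89.1 CPM at 11.1 mM and 243 CPM at 3.9 mM with imeglimin, and 74.5 CPM at 11.1 mM and 148 CPM at 3.9 mM with vehicle (−1.45, −1.49 to −1.41, and −0.99), while Eif4ebp2 had 0.38 and 0.02.

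The 4 comparisons share libraries, so the drug and glucose ratios above are not independent of each other. The difference between the imeglimin log2 ratio at 11.1 mM and that at 3.9 mM was taken for the 46 members past the minimum in any library. Its median was −0.05, against 0.03 over 6354 genes; 2 members were at least 1.5-fold higher (14.0% of all genes were) and 2 at least 1.5-fold lower (8.06% of all genes). The difference was 0.76 (0.69 to 0.83) for Eif4g3 and 0.65 (0.61 to 0.69) for Eif3c. It was −0.69 (−0.84 to −0.54) for Eif2b2 and −0.62 (−0.73 to −0.51) for Eif4e2. For the rest the imeglimin ratio at the 2 glucose levels lay within 1.5-fold of each other.

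Partners of the initiation factors were read from 4 lists, chosen with earlier results of these data known. Ppp1r15a stood in both the eIF2 phosphatase list and the ATF4 response list, so it adds to the counts of both. The list of eIF2 kinase regulators and eIF2 phosphatase subunits had 18 names, of which 17 were in the count tables. At 11.1 mM in beta-like cells 13 were compared. With imeglimin 0 were at least 1.5-fold lower and 3 higher, with a median of 0.24 (all genes: 5.62% higher, 4.31% lower, median 0.11). They were Ppp1r15a, the stress-induced phosphatase subunit (90.5 CPM with imeglimin and 53.7 CPM with vehicle, log2 ratio 0.75), Impact, an inhibitor of GCN2 (123 CPM with imeglimin and 75.0 CPM with vehicle, 0.71), and Bzw2, an eIF5 mimic (27.7 CPM with imeglimin and 18.1 CPM with vehicle, 0.61). At 3.9 mM, where 12.4% of all genes were higher and 10.6% lower with a median of 0.10, 3 of 15 were higher: Bzw1, the other eIF5 mimic (177 CPM with imeglimin and 96.7 CPM with vehicle, 0.87), Ppp1r15a (205 CPM with imeglimin and 134 CPM with vehicle, 0.61) and Nck1 (74.0 CPM with imeglimin and 48.7 CPM with vehicle, 0.60). Ppp1r15b, the constitutive phosphatase subunit, had 40.9 CPM with imeglimin and 37.3 CPM with vehicle at 11.1 mM, and 44.3 CPM with imeglimin and 45 CPM with vehicle at 3.9 mM. Dnajc3, an inhibitor of PERK and PKR, had 452 CPM with imeglimin and 350 CPM with vehicle at 11.1 mM, and 325 CPM with imeglimin and 220 CPM with vehicle at 3.9 mM (0.37 and 0.56).

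The ATF4 response list, 9 genes, had 6 of 8 past 1.5-fold upwards with imeglimin at 11.1 mM (median 0.76) and 4 of 9 at 3.9 mM (median 0.34), beside 5.62% and 12.4% of all genes and all-gene medians of 0.11 and 0.10. Atf4 had 323 CPM with imeglimin and 184 CPM with vehicle at 11.1 mM, and 314 CPM with imeglimin and 248 CPM with vehicle at 3.9 mM (0.81 and 0.34). Ddit3, which encodes CHOP, had 396 CPM with imeglimin and 131 CPM with vehicle at 11.1 mM, and 1857 CPM with imeglimin and 1158 CPM with vehicle at 3.9 mM (1.59 and 0.68). The eIF2 kinase genes beside them were within 1.5-fold. Of 19 genes of eIF4F and mTOR control, 1 of 13 was higher at 11.1 mM, Pabpc4 (87.5 CPM with imeglimin and 54.9 CPM with vehicle, 0.67), and 1 lower, Pdcd4, an inhibitor of eIF4A (134 CPM with imeglimin and 206 CPM with vehicle, −0.62). At 3.9 mM, 1 of 15 was higher, Rheb, the activator of mTORC1 (323 CPM with imeglimin and 175 CPM with vehicle, 0.88), and 0 lower. Of 15 genes of elongation, termination and recycling, the same 2 of 11 were higher at both glucose levels, Eef1e1 (0.66 and 0.67) and Denr (0.60 and 0.59).

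By glucose, Ppp1r15a had 90.5 CPM at 11.1 mM and 205 CPM at 3.9 mM with imeglimin, and 53.7 CPM at 11.1 mM and 134 CPM at 3.9 mM with vehicle (log2 ratios −1.18 and −1.31). In the eIF2 phosphatase list, 4 of 15 genes were past 1.5-fold downwards with imeglimin (23.4% of all genes) and 3 of 15 with vehicle (19.8%). Dnajc3 was the 1 past 1.5-fold upwards with vehicle (0.67, and 0.48 with imeglimin). Prkra, an activator of PKR, was lower with both (−1.04 with imeglimin and −1.16 with vehicle). Pdcd4 was higher at 11.1 mM with both, at 134 CPM at 11.1 mM and 76.3 CPM at 3.9 mM with imeglimin and 206 CPM at 11.1 mM and 104 CPM at 3.9 mM with vehicle (0.82 and 0.99), as was Ddit4, an inhibitor of mTORC1 (0.83 and 0.69). Mknk1, a kinase of eIF4E, was lower with vehicle (−1.17), and Rheb with imeglimin (−0.74). Eef1d, part of the exchange factor of eEF1A, and Eef1e1, of the tRNA synthetase complex, were lower with both, at −1.06 and −1.03 with imeglimin and −1.04 and −1.02 with vehicle. In the ATF4 list, 5 of 9 genes were past 1.5-fold downwards and 2 upwards with imeglimin, and 3 of 7 downwards and 0 upwards with vehicle, beside 23.4% and 15.6% of all genes with imeglimin and 19.8% and 9.91% with vehicle.

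In alpha-like cells, which make glucagon, Eif4ebp1 had the largest ratio of the family. It had 62.5 CPM with imeglimin and 17.2 CPM with vehicle at 11.1 mM, from 343 and 76 UMIs. At 3.9 mM it had 152 CPM with imeglimin and 18.6 CPM with vehicle, from 1246 and 119 UMIs. The log2 ratio was 1.86 (1.5 to 2.24), a 3.63-fold difference, at 11.1 mM and 3.03 (2.76 to 3.32), an 8.18-fold difference, at 3.9 mM. In vehicle it lay under the 50 CPM minimum at both glucose levels, so it was compared only through the imeglimin libraries. Of 35 members compared at 11.1 mM, 4 were at least 1.5-fold higher with imeglimin (6.29% of all 3150 genes were) and 0 lower (4.92%), with medians of 0.18 for members and 0.06 for all genes. The others were Eif1 (2142 CPM with imeglimin and 1287 CPM with vehicle, 0.73), Eif5 (485 CPM with imeglimin and 304 CPM with vehicle, 0.68) and Eif3c (261 CPM with imeglimin and 170 CPM with vehicle, 0.62).

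At 3.9 mM, 8 of 36 members were higher with imeglimin in alpha-like cells (22.2%, beside 12.8% of all 3287 genes) and 0 lower (7.54%), with medians of 0.25 and 0.09. Eif1 had 3037 CPM with imeglimin and 1311 CPM with vehicle (1.21), Eif5 had 759 CPM with imeglimin and 355 CPM with vehicle (1.10), Eif3c 373 CPM with imeglimin and 182 CPM with vehicle (1.03) and Eif2s2 398 CPM with imeglimin and 197 CPM with vehicle (1.01). Eif3h, Eif3e and Eif3f made up the 8, and they were past 1.5-fold here though not in beta-like cells; that difference between classes was not tested. Along glucose, alpha-like members hardly differed with vehicle, where 0 of 34 were past 1.5-fold in either direction (0.891% of all 3030 genes were higher and 0.363% lower). With imeglimin, 3 of 35 were lower at 11.1 mM (3.17% of all 3150 genes) and 0 higher (2%): Eif4ebp1 with 62.5 CPM at 11.1 mM and 152 CPM at 3.9 mM (−1.28), Eif5 (−0.65) and Eif3f (−0.59). The imeglimin ratio was smaller at 11.1 than at 3.9 mM by at least 1.5-fold for 1 of 36 members, Eif4ebp1 (a difference of −1.17, −1.62 to −0.72; 2.32% of all genes), and larger for 0 (1.67% of all genes). Malat1 took 4.97% of alpha-like UMIs in the imeglimin library and 2.56% in the vehicle library at 11.1 mM, and 4.37% in the imeglimin library and 2.5% in the vehicle library at 3.9 mM, and its part in these values was not tested.

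In delta-like cells, which make somatostatin, 3 of 36 members were higher with imeglimin at 11.1 mM (3.95% of all 3287 genes) and 0 lower (3.29%): Eif5 (676 CPM with imeglimin and 405 CPM with vehicle, 0.74), Eif3j1 (64.5 CPM with imeglimin and 40.9 CPM with vehicle, 0.66) and Eif4ebp2 (67.3 CPM with imeglimin and 44.8 CPM with vehicle, 0.59). Eif3j1 and Eif4ebp2 passed the 50 CPM minimum only through the imeglimin library. At 3.9 mM, 17 of 38 were higher (44.7%, beside 23.5% of all 3565 genes) and 0 lower (8.75%), with medians of 0.55 for members and 0.23 for all genes. Of the 17, Eif2b3, Eif3b, Eif3j1, Eif4e2 and Eif4ebp1 passed the minimum only through the imeglimin library. Eif4ebp1 again led, at 177 CPM with imeglimin and 46.2 CPM with vehicle (1.94, 1.63 to 2.25). Eif5 had 1374 CPM with imeglimin and 477 CPM with vehicle (1.53), Eif1 4931 CPM with imeglimin and 2002 CPM with vehicle (1.3), Eif2b3 54.9 CPM with imeglimin and 25.5 CPM with vehicle (1.11) and Eif3c 508 CPM with imeglimin and 246 CPM with vehicle (1.04). By glucose with imeglimin, 12 of 38 were lower at 11.1 mM (31.6%, beside 14.2% of all 3502 genes) and 0 higher (7.25%), led by Eif4ebp1 (−1.45), Eif5 (−1.02), Eif3g (−1.0), Eif2b3 (−0.95) and Eif3m (−0.83). Of the 12, Eif2b3 and Eif4e2 passed the minimum only through the 3.9 mM library, so they could be counted as lower alone. With vehicle, 0 of 34 were past 1.5-fold either way (2.65% of all 3246 genes higher, 1.05% lower). The imeglimin 3.9 mM library was thus the high one of the 4 for these genes; it also held 590 delta-like cells, against 267 in imeglimin 11.1 mM, 315 in vehicle 11.1 mM and 235 in vehicle 3.9 mM. The imeglimin ratio was smaller at 11.1 than at 3.9 mM by at least 1.5-fold for 10 of 38 members (14.4% of all genes), led by Eif4ebp1 (a difference of −1.60, −2.07 to −1.13) and Eif3m (−1.04, −1.38 to −0.69), and larger for 0 (5.46% of all genes). The counts depend on the scale: at 3.9 mM, 9 members were higher and 2 lower on CPM without hormone and mitochondrially encoded genes.

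**Figure D3:**
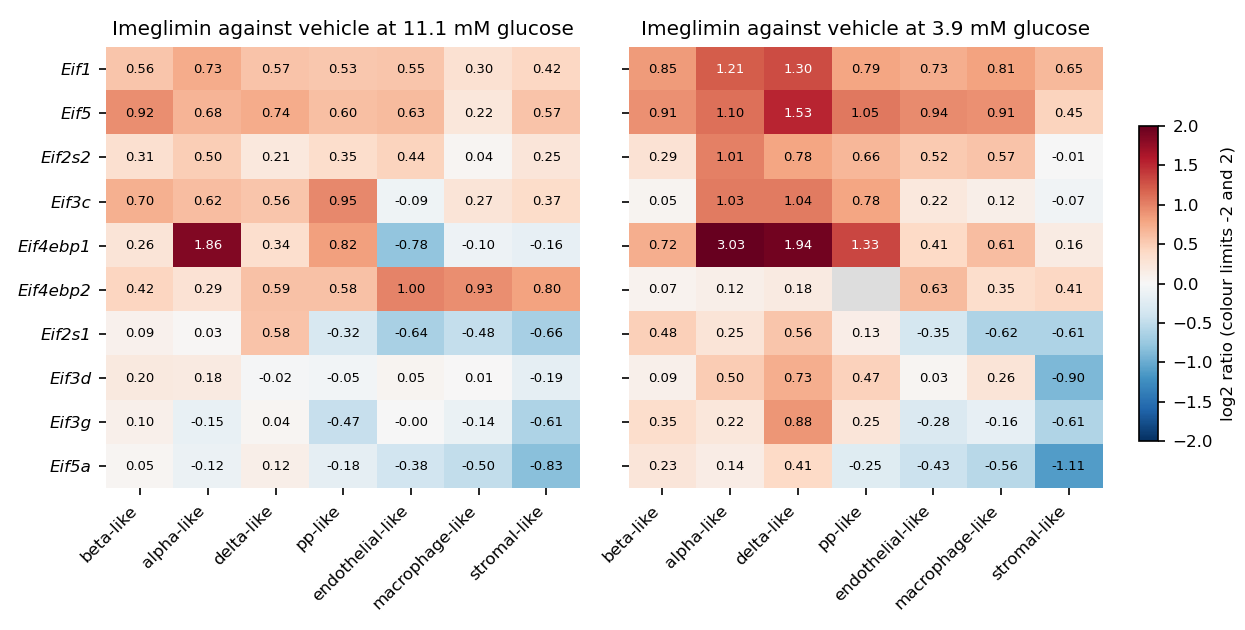
Log2 ratio of imeglimin over vehicle for 10 members (rows) in the 7 cell classes (columns) at 11.1 mM and at 3.9 mM glucose; red is higher with imeglimin, blue lower, colours end at −2 and 2, and grey is below the minimum. Eif1 and Eif5 are red in all classes at both glucose levels, Eif4ebp1 is darkest in alpha-like cells at 3.9 mM (3.03), and Eif5a is blue in stromal-like cells (−0.83 and −1.11).

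Eif1 and Eif5 were higher with imeglimin in every class at both glucose levels, 14 of 14 pairs of libraries, on TMM-scaled CPM, plain CPM and CPM without hormone and mitochondrially encoded genes. Outside the alpha-, beta- and delta-like classes, the log2 ratio of Eif1 was 0.53 in PP-, 0.55 in endothelial-, 0.30 in macrophage- and 0.42 in stromal-like cells at 11.1 mM, and 0.79, 0.73, 0.81 and 0.65 in the same order at 3.9 mM. That of Eif5 was 0.60, 0.63, 0.22 and 0.57 at 11.1 mM and 1.05, 0.94, 0.91 and 0.45 at 3.9 mM. Eif2s2 was higher in 13 of 14 pairs, and in 12 of 14 on plain CPM. Eif4ebp2 was higher in 14 of 14 with TMM scaling and in 11 of 14 on each of the other scales. Eif4g1 ran the other way: it was higher in 1 of 14 pairs with TMM scaling and in 0 of 14 without hormone and mitochondrially encoded genes. In endothelial-like cells it had 173 CPM with imeglimin and 252 CPM with vehicle at 11.1 mM, and in stromal-like cells 149 CPM with imeglimin and 210 CPM with vehicle. The 14 pairs come from 4 libraries, so they are not 14 independent observations. The share of all genes higher in as many pairs was not counted. Hormone transcripts took 6.39% to 12.2% of UMIs in macrophage-like cells and 6.43% to 15% in stromal-like cells. RNA of endocrine cells was thus counted in these classes, and its part in the Eif1 and Eif5 ratios was not tested.

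The smaller classes had their own outlying members. In PP-like cells, 4 of 34 members were higher with imeglimin at 11.1 mM (7.68% of all genes) and 5 of 34 at 3.9 mM (11.3%), with 0 lower (6.08% and 7.72%); Eif3c had 299 CPM with imeglimin and 154 CPM with vehicle at 11.1 mM (0.95), and Eif4ebp1 132 CPM with imeglimin and 52.5 CPM with vehicle at 3.9 mM (1.33). In endothelial-like cells, 2 of 39 were higher (10.7%) and 4 lower (8.40%) at 11.1 mM, and 3 of 40 higher (9.53%) and 1 lower (10.0%) at 3.9 mM. Eif2b2 had 51.0 CPM with imeglimin and 136 CPM with vehicle there at 11.1 mM (−1.42, −1.84 to −1.01), and Eif4ebp1 186 CPM with imeglimin and 320 CPM with vehicle (−0.78); at 3.9 mM Eif4ebp1 had 203 CPM with imeglimin and 153 CPM with vehicle there. In macrophage-like cells, 1 of 35 was higher (9.24%) and 1 lower (7.97%) at 11.1 mM, and 3 of 38 higher (10.3%) and 2 lower (15.4%) at 3.9 mM. In stromal-like cells, 1 of 40 was higher (7.48%) and 4 lower (10.1%) at 11.1 mM, and 2 of 41 higher (9.65%) and 6 lower (13.6%) at 3.9 mM. Some members counted in these classes passed the 50 CPM minimum only through the library where they were high. They were Eif2b5 in endothelial-like cells (lower at 3.9 mM), Eif4ebp2 in macrophage-like cells (higher at 11.1 mM) and Eif2s3y in stromal-like cells (lower at 11.1 mM). These members could be counted in that direction alone. Eif5a, a factor that relieves stalled ribosomes during elongation, had 424 CPM with imeglimin and 755 CPM with vehicle in stromal-like cells at 11.1 mM, and 449 CPM with imeglimin and 968 CPM with vehicle at 3.9 mM (−0.83 and −1.11). The stromal-like class held 77 to 169 cells per library, and its hormone share, 6.43% to 15%, shows transcripts of endocrine cells in it.

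**Figure D4:**
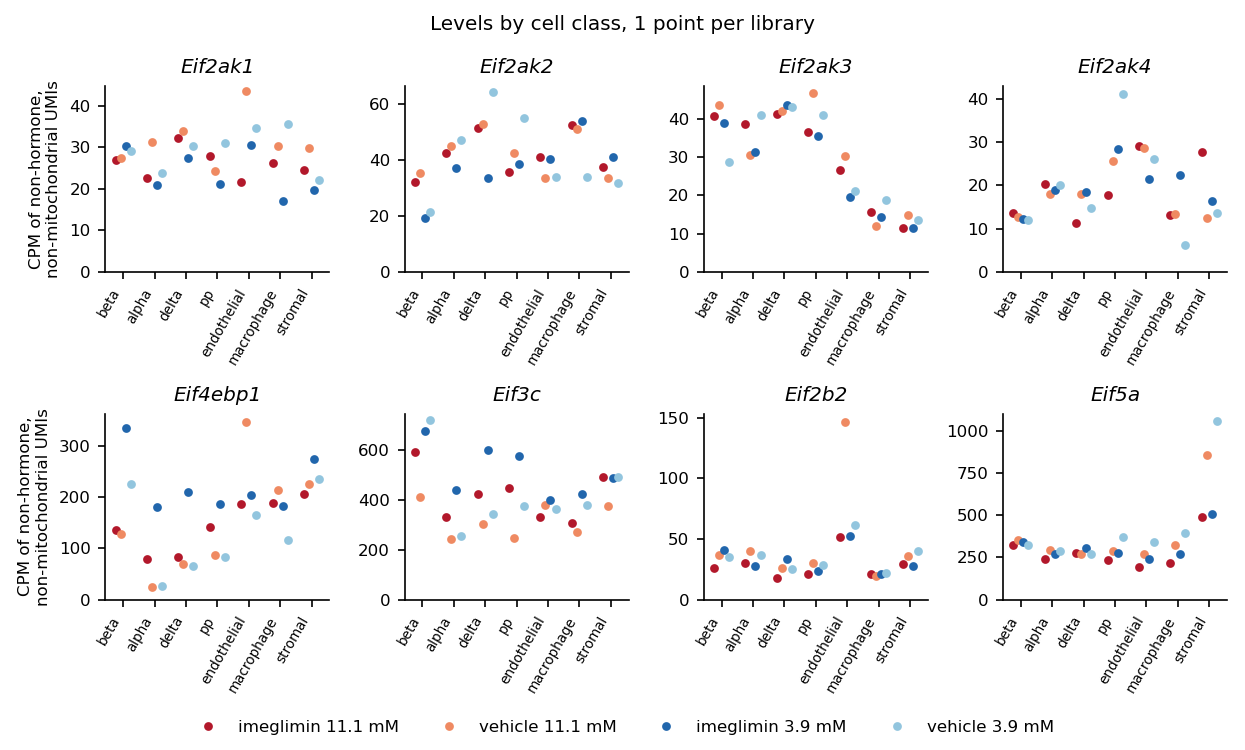
Level of Eif2ak1 to Eif2ak4, Eif4ebp1, Eif3c, Eif2b2 and Eif5a in the 7 cell classes, as CPM of UMIs outside hormone and mitochondrially encoded genes, 1 point per library. Eif2ak3 is lowest in macrophage- and stromal-like cells, Eif2ak2 is lower in beta- than in alpha-like cells, and Eif5a is highest in stromal-like cells.

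Levels were compared between classes as CPM of UMIs outside hormone and mitochondrially encoded genes, as ranges over the 4 libraries and without a test. PERK transcripts were more abundant in the endocrine classes: Eif2ak3 had 28.9 to 43.8 CPM in beta-, 30.5 to 41.0 in alpha-, 41.4 to 43.6 in delta- and 35.6 to 46.9 in PP-like cells. It had 19.6 to 30.3 CPM in endothelial-like cells, whose range overlaps that of beta-like cells, and 12.1 to 18.7 CPM in macrophage- and 11.4 to 14.9 CPM in stromal-like cells, whose ranges do not reach any endocrine class. Eif2ak2 had 19.2 to 35.4 CPM in beta-like cells and 36.9 to 47.1 CPM in alpha-like cells, with no overlap, and 33.6 to 64.0 CPM in delta- and 33.8 to 53.7 CPM in macrophage-like cells. Eif2ak4 had 11.9 to 13.6 CPM in beta-, 18.0 to 20.3 in alpha- and 21.4 to 29.0 in endothelial-like cells, in separate ranges. The other classes overlapped these ranges. Eif2ak4 had 17.8 to 41.2 CPM in PP-, 11.4 to 18.4 in delta-, 6.23 to 22.3 in macrophage- and 12.4 to 27.7 in stromal-like cells. The ranges of Eif2ak1 overlapped across classes, between 17.0 and 43.4 CPM. In the small classes these kinase levels rest on few UMIs, down to 7 for Eif2ak3 in a stromal-like library.

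Eif4ebp1 was higher in beta- than in alpha-like cells of each library, at 135 against 79.3 CPM in imeglimin 11.1 mM, 128 against 24.4 CPM in vehicle 11.1 mM, 334 against 180 CPM in imeglimin 3.9 mM and 225 against 25.8 CPM in vehicle 3.9 mM. The gap between the classes was thus narrower in the imeglimin libraries. Eif3c was likewise higher in beta- than in alpha-like cells of each library, at 591 against 331 CPM in imeglimin 11.1 mM, 413 against 241 CPM in vehicle 11.1 mM, 674 against 441 CPM in imeglimin 3.9 mM and 721 against 253 CPM in vehicle 3.9 mM. Eif1b, a close relative of Eif1, had the opposite order, with 429 to 507 CPM in alpha-like cells and lower values in the beta-like cells of all 4 libraries. Eif5a had 491 to 1058 CPM in stromal-like cells and at most 394 CPM in any other class. Eif2b2 was high in endothelial-like cells, at 51.3 CPM in imeglimin 11.1 mM, 147 CPM in vehicle 11.1 mM, 52.6 CPM in imeglimin 3.9 mM and 61.6 CPM in vehicle 3.9 mM, with at most 40.9 CPM in any other class. Eif4e3, which overlaps another coding gene on its strand, was highest in delta-like cells of all 4 libraries, at 33.2 to 65.4 CPM. Stromal-like cells were the highest class in all 4 libraries for Eif4a1, Eif3i, Eif3b, Eif2s1, Eif3l and Eif1ax too, and endothelial-like cells for Eif4g2, Eif4h, Eif4ebp2 and Eif4a3. Free RNA bears on such levels: hormone transcripts were 1.5% to 4.05% of UMIs in endothelial-like cells and 6.39% to 12.2% in macrophage-like cells, neither of which makes them.

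**Figure D5:**
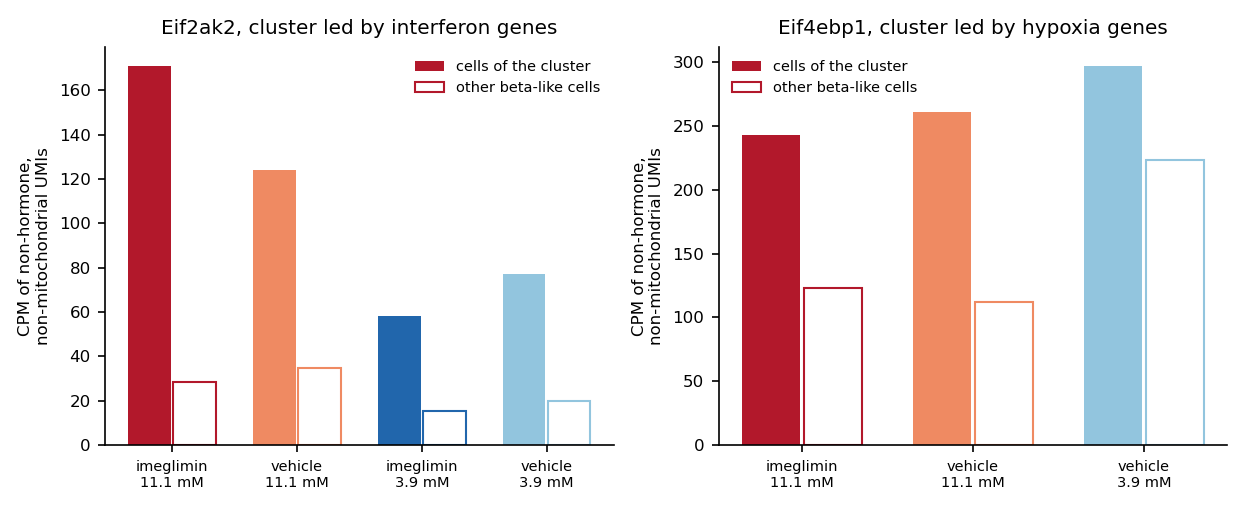
Level (CPM of UMIs outside hormone and mitochondrially encoded genes, without intervals) of Eif2ak2 in the interferon-led beta-like cluster and in the other beta-like cells of the 4 libraries, and of Eif4ebp1 in the hypoxia-led cluster and in the others of 3 libraries. Eif2ak2 is higher in the interferon-led cluster of each library, for example 171 against 28.5 CPM in imeglimin 11.1 mM.

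Within the beta-like class, 3 smaller clusters were led by interferon, hypoxia or heat shock genes. Since clusters were made from all genes, these values are a description. In the cluster led by the interferon-induced genes Ifit3 and Rsad2, Eif2ak2, itself known as an interferon-induced gene, had 171 CPM against 28.5 CPM in the other beta-like cells of imeglimin 11.1 mM (184 UMIs in 128 cells), and 124 against 34.7 CPM in vehicle 11.1 mM (40 UMIs in 31 cells). It had 58.0 against 15.5 CPM in imeglimin 3.9 mM and 77.1 against 19.9 CPM in vehicle 3.9 mM. The cluster was above the other cells in each library. It held 2.37% of the beta-like cells in imeglimin 11.1 mM, 0.644% in vehicle 11.1 mM, 7.69% in imeglimin 3.9 mM and 2.22% in vehicle 3.9 mM.

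In the cluster led by the hypoxia genes Ero1l and Bnip3, Eif4ebp1 had 243 against 123 CPM in the other beta-like cells of imeglimin 11.1 mM, 261 against 112 CPM in vehicle 11.1 mM and 297 against 223 CPM in vehicle 3.9 mM. It was higher in the cluster in these 3 libraries; imeglimin 3.9 mM had 4 cells there. Eif1b (log2 ratios 0.57, 0.63 and 0.41) and Eif2ak3 (0.35, 0.54 and 0.47) were higher in the cluster in the same 3 libraries. The cluster held 11.8% of the beta-like cells of imeglimin 11.1 mM, 11% of vehicle 11.1 mM, 0.0915% of imeglimin 3.9 mM and 2.46% of vehicle 3.9 mM. In the cluster led by the heat shock genes Hspa1a and Hspa1b, Eif4ebp1 had log2 ratios of mixed sign, at 0.41 in imeglimin 11.1 mM, 0.93 in vehicle 11.1 mM and −0.61 in imeglimin 3.9 mM.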

How the data were processed

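The data are droplet single-cell RNA libraries (10x Genomics 3′ v3.1 chemistry, per the labels) of dispersed mouse islets, 1 library for each of 4 conditions. The deposited files hold raw UMI counts per gene and cell barcode. They were made with Cell Ranger 6.0.2 on mm10, per the submitters' processing notes; the annotation is not given in the sources used here. The members and partner lists were chosen with earlier results of these data known.

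Barcodes with under 1000 UMIs, under 500 genes or over 20% mitochondrial UMIs were dropped, which left 8427 of 8935 barcodes with imeglimin and 7444 of 8073 with vehicle at 11.1 mM glucose, and 8755 of 10134 with imeglimin and 7166 of 8565 with vehicle at 3.9 mM, holding 105649755, 102916966, 90066780 and 94712118 UMIs in that order. All cells were clustered together with scanpy 1.11.5 and leidenalg 0.10.2 (2000 variable genes, 30 components, 15 neighbours, resolution 1.0). A cluster was named from at least 3 detected markers listed for its type, so a class may differ from the authors' own; 1010, 987, 1802 and 1184 cells stayed unnamed. No doublets were removed; an alternative leaves out the highest scores at 0.8% per 1000 barcodes. UMIs were summed per class and library and scaled with TMM factors (edgeR 4.0.16), and ratios carry exact Clopper-Pearson counting intervals of 95%. With 1 library per condition no test was run. A ratio counts at 1.5-fold; the members named are all eIF2 kinases, eIF2 and eIF2B subunits and eIF4E-binding proteins, and any member past that fold. The ratio step was tested on simulated data. The 13 other settings cover scaling, minimum, filters, doublets, shared barcodes, thinning to 3000 UMIs and cluster resolution; those that leave out stress-led clusters or shallow cells in beta-like cells, and those of alpha- and delta-like cells, were chosen after seeing the data. Gene positions come from GENCODE vM21 and promoters from RefSeq (GRCm38.p6), neither of which is stated to be the authors' annotation.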

Additional observations from a re-analysis of the deposited data

Results flagged for a closer look

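The imeglimin ratio of 6 members in beta-like cells lay on opposite sides of 0 at the 2 glucose levels, with counting intervals that exclude 0 at each level, and for 2 of them the difference reached 1.5-fold. The share of all genes on opposite sides was not counted. For Eif2b5, Eif3m, Eif4a3 and Eif4h the difference was 0.51, −0.52, −0.44 and 0.17 on the log2 scale. On CPM without hormone and mitochondrially encoded genes, Eif4h was lower with imeglimin at both glucose levels. It had 101 CPM with imeglimin and 109 CPM with vehicle at 11.1 mM, and 109 CPM with imeglimin and 129 CPM with vehicle at 3.9 mM. On that scale Eif2b5 at 11.1 mM had 72.5 CPM with imeglimin and 69.9 CPM with vehicle, a small gap. On plain CPM at 3.9 mM some gaps were small too. Imeglimin and vehicle had 29.5 and 28.3 CPM for Eif2b2, 63.9 and 63.5 CPM for Eif4a3, and 219 and 210 CPM for Eif3m. Eif4g3, a scaffold of eIF4F, had 117 CPM with imeglimin and 89.3 CPM with vehicle at 11.1 mM glucose (log2 ratio 0.39, 0.34 to 0.44) and 98.3 CPM with imeglimin and 127 CPM with vehicle at 3.9 mM (−0.37, −0.42 to −0.32), a difference of 0.76. That difference was 0.69 to 1.02 in the 13 other settings. Eif2b2, a regulatory subunit of eIF2B, had 17.2 CPM with imeglimin and 21.6 CPM with vehicle at 11.1 mM (−0.32, −0.44 to −0.21) and 29.8 CPM with imeglimin and 23.1 CPM with vehicle at 3.9 mM (0.37, 0.27 to 0.46), a difference of −0.69, which was −0.73 to −0.43 in the other settings. Neither difference was tested, since each condition had 1 library.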

How the results depend on the processing

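With 1 library per condition, no replicate could be left out and the settings change only the cells, the scale and the minimum. No paired analysis was possible because each condition has 1 library. In beta-like cells all members past 1.5-fold kept their direction in the 13 other settings; counts and medians moved mainly with the scale, and the imeglimin medians changed sign on 1 scale at each glucose level. The causes of these shifts were not tested. Without replicates, depth limits only counting error, which is small for Eif1 and Eif5 and wide for members near the minimum.

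For imeglimin against vehicle in beta-like cells at 11.1 mM, 1 member was higher (3 by TMM) on CPM without hormone and mitochondrially encoded genes, and the median (0.17 by TMM) was −0.019 on that scale and 0.068 by per-cell means. Of all genes, 2.09% were higher without hormone genes (5.62% by TMM). At 3.9 mM, 1 was higher on plain CPM and 2 without hormone genes (5 by TMM), 2 were lower on plain CPM (0 by TMM), and the median (0.28 by TMM) was −0.023 and 0.128. Of all genes, 3.47% were higher on plain CPM and 6.25% without hormone genes (12.4% by TMM). On plain CPM 24.2% of all genes were lower (10.6% by TMM). For 11.1 against 3.9 mM under imeglimin, 1 member was higher (2 by TMM) on plain CPM, with the 50 CPM minimum, in deep cells (10000 UMIs or more, mitochondrial share up to 5%), and without stress-led clusters, and 3 were higher without hormone genes, where the median was −0.28 (−0.48 by TMM). The share of all genes higher was 11% on plain CPM and 21.3% without hormone genes (15.6% by TMM). It was 15.9% with the 50 CPM minimum, 16.3% in deep cells and 15.4% without stress-led clusters. Under vehicle, 31 were lower on plain CPM (15 by TMM), the median (−0.42 by TMM) was −0.77 on plain CPM, −0.18 without hormone genes and −0.23 by per-cell means, and the number higher (0 by TMM) was 3 without hormone genes, 2 by per-cell means, 1 in the deep cells, 1 without stress-led clusters and 2 after thinning to 3000 UMIs. On plain CPM 48.8% of all genes were lower (19.8% by TMM), and their median was −0.57 (−0.15 by TMM). The share of all genes higher was 15.8% without hormone genes and 13.4% by per-cell means (9.91% by TMM). It was 11.3% in the deep cells, 11.1% without stress-led clusters and 10.8% after thinning.

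In alpha-like cells with imeglimin at 11.1 mM, 2 were higher on plain CPM and 1 without hormone genes (4 by TMM), with medians of 0.056 and 0.0098 (0.18). Of all genes, 3.94% and 3.28% were higher on these scales (6.29% by TMM). At 3.9 mM, 5 were higher on either scale (8), with medians of 0.042 and 0.018 (0.25), and 6% and 5.08% of all genes were higher (12.8%). Under imeglimin, 1 was lower at 11.1 mM on plain CPM, without hormone genes and by per-cell means (3), with medians of −0.20, −0.16 and −0.20 (−0.27). In delta-like cells with imeglimin at 11.1 mM, 1 was higher without hormone genes (3). At 3.9 mM, plain CPM, the scale without hormone genes and per-cell means gave 7, 9 and 7 higher (17), 1, 2 and 1 lower (0) and medians of 0.27, 0.27 and 0.25 (0.55). Under vehicle the glucose median was −0.18 on plain CPM (0.00). Under imeglimin, 2 were higher at 11.1 mM without hormone genes (0), 7 were lower without hormone genes and 3 by per-cell means (12), and the median by per-cell means was −0.19 (−0.41). All-gene shares on these scales are not given here for the alpha-like glucose counts or for delta-like cells.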
